A study of Homo sapiens with 10 samples.

Results

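The genes of MHC class I antigen presentation were examined in derivatives of T47D, a luminal human breast cancer cell line, and the question was whether their level follows the interferon state of each line. The genes were listed by name, with earlier results of these data known: TAP1, TAP2, PSMB9, B2M, HLA-E, HLA-F, TAPBP, PSME1 and PSME2. A gene counted as measured where a probe set of the array carried its symbol and no other. By that rule 8 of the 9 genes were measured, with 10 of the 16376 probe sets, among 8904 genes measured in all. The probe set for PSME2 also carries the symbol of a microRNA gene, so PSME2 has no value here.

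The 5 groups were T47D-Y vehicle, WT PR-A vehicle, WT PR-A R5020, PR-A K388R vehicle and PR-A K388R R5020, with 2 arrays each. T47D-Y is a cloned T47D subline that lacks the progesterone receptor (PR), and all 5 groups share that background. The other lines came from it by stable transfection with an expression vector for the short PR isoform, either wild type (WT PR-A) or with the SUMO acceptor lysine changed to arginine (PR-A K388R). Ethanol was the vehicle, and the synthetic progestin R5020 was given at 10 nM for 24 h. The sources used here do not say whether each transfected line is a clone or a pool, so a difference between lines cannot be told apart from a difference between clones. The replicate arrays are not described as separate cultures, so p-values measure the spread between these arrays, which may be technical. T47D-Y cells given R5020 were not analysed here.

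MHC class I molecules display peptides from inside the cell to CD8 T cells and natural killer cells. The proteasome cuts proteins into peptides, TAP pumps the peptides into the endoplasmic reticulum, tapasin holds empty class I molecules at TAP, and a filled heavy chain leaves for the surface together with beta-2-microglobulin. Interferons raise most of these genes: type I interferons act at interferon-stimulated response elements, with IRF9 among the factors bound there, and interferon gamma acts at gamma-activated sites and through IRF1 and NLRC5. In tumor cells the level of this machinery sets how visible the cell is to T cells.

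Sequences around the starts of the genes are shown because the question turns on interferon. Those shown hold matches to the core of the element through which type I interferons act. RefSeq promoter windows on GRCh38.p14, from 250 bases before to 50 after each annotated start, were at hand for 8 of the 9 genes (9 windows). Both strands were searched for the core of the interferon-stimulated response element (GAAANNGAA, where N is any base), and the matches are in capitals in the lines that follow, which read 5′ to 3′ on the gene's own strand. TAP1 is at chr6:32853705-32853954 (minus strand), HLA-F at chr6:29723184-29723433 (plus strand), TAP2 at chr6:32838740-32838989 (minus strand) and TAPBP at chr6:33314079-33314328 (minus strand), each as the 250 bases before the start. For B2M (chr15:44711366-44711394, plus strand) and PSME1 (chr14:24136190-24136218, plus strand) 29 bases around the match are given.
TAP1: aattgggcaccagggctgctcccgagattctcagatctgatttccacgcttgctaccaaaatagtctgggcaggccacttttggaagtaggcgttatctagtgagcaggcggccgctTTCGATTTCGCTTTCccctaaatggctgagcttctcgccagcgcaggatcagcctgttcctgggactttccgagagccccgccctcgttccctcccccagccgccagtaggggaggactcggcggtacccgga
HLA-F: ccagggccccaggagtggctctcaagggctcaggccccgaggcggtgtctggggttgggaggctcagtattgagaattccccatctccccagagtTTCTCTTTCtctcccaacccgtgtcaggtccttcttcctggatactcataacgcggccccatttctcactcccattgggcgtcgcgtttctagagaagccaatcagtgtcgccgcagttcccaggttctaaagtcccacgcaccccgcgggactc
TAP2: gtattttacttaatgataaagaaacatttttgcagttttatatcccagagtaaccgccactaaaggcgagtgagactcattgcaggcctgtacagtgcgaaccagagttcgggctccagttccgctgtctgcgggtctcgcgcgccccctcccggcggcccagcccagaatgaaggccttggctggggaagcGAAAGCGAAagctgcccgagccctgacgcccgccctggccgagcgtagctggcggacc
TAPBP: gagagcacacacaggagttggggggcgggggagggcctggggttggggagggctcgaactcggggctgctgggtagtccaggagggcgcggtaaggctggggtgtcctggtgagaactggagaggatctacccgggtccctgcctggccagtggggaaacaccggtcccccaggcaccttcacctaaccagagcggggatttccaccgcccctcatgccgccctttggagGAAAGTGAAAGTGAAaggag
B2M: actctaaGAAAAGGAAACTGAAaacggga
PSME1: ccctaccgctTTCGCTTTCccttcgcggt

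The core was present in 7 of the 8 genes with a window. These were TAP1, TAP2, B2M, HLA-F, TAPBP, PSME1 and PSME2, and PSMB9 had no match in its window. As a share of windows this was 77.8% of 9, against 8.11% of all 35116 windows of the same length, 69.2% of 26 windows of type I interferon-stimulated genes and 15.4% of 13 windows of constitutive proteasome genes. Counted from the start, the match lay at −133 to −119 in TAP1, −144 to −130 in B2M and −20 to −6 in TAPBP, in each case as a pair of overlapping cores. In PSME1 the match lay at 7 to 15, after the annotated start. The gamma-activated site core (TTCNNNGAA) was found in 1 of the 9 windows, a second TAP1 window, against 7.66% of all windows. The core of the progesterone response element (ACANNNTGT) was found in 0 of the 9, against 5.37% of all. A match is a description of these letters and says nothing about binding in these cells. Several of the genes are neighbours: in the gene table TAP2, PSMB8, TAP1 and PSMB9 follow each other on chromosome 6, with an antisense RNA gene beside PSMB8, and PSME1 and PSME2 are separated by EMC9 alone on chromosome 14.

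**Figure D1:**
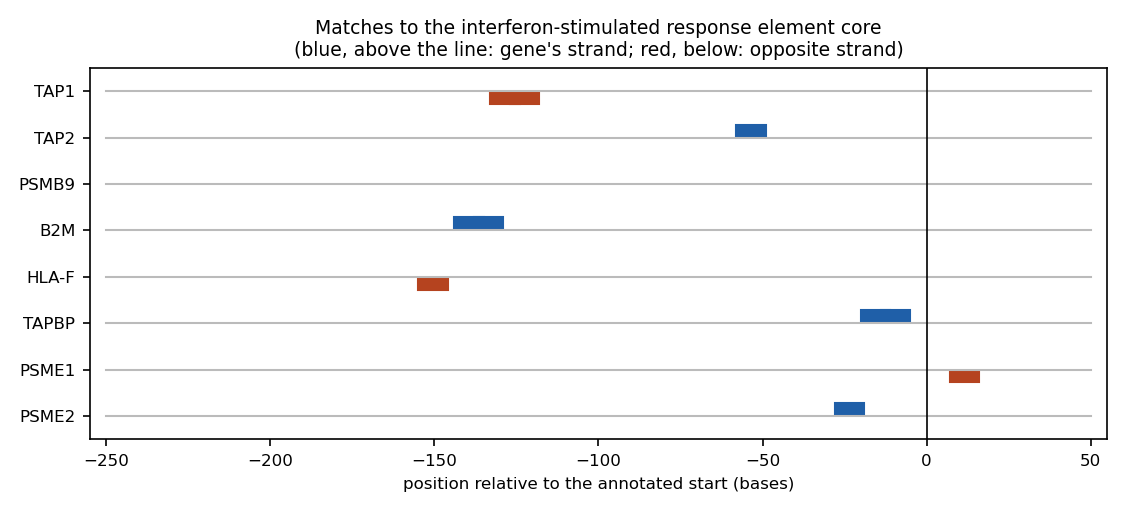
Positions of the interferon-stimulated response element core in the promoter windows of 8 class I genes (horizontal axis, bases from the annotated start; 1 line per gene; blue boxes, match on the gene's strand; red boxes, match on the opposite strand). The first window is drawn for TAP1; 7 of the 8 genes hold a match and PSMB9 holds none.

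Expression values are log2 signals per probe set, normalized by the authors, so a difference of 1 is a 2-fold change, and levels are compared between groups for 1 probe set and never between genes. Array medians lay between 4.59 and 4.69, and arrays of a group correlated at r = 0.996 to 0.997 across probe sets. As a check of the label, each marker list was set against the quartiles of the arrays and not against another list: 8 luminal markers averaged 10.12 to 11.07, over the upper quartile (6.93 to 7.07) in every array, and 10 leukocyte and 9 fibroblast markers averaged 4.06 to 4.36 and 4.30 to 4.66. PTPRC, the pan-leukocyte marker, read 2.58 to 2.73, under the lower quartile (3.28 to 3.39) in every array. The mean of the leukocyte list lay above that quartile and under the array medians, so PTPRC does not stand for its list. Signal also depends on the probes, so these positions are a description. In the fibroblast list COL1A1 differed between the groups, from 6.11 to 9.59. The luminal mean moved with the groups, from 11.01 and 11.07 in T47D-Y to 10.57 and 10.64 in WT PR-A vehicle and 10.12 and 10.20 in WT PR-A R5020, with ESR1, the estrogen receptor, at 9.74 and 10.11, then 8.34 and 8.52, then 7.73 and 7.90 in these groups. The part of this in the class I values was not tested. Of 10 known progestin targets 2 were called lower in the difference of R5020 responses, PR-A K388R minus WT PR-A, against 0.953% of all probe sets. They were PDK4 (−1.84, limma adjusted p = 0.0492) and DUSP1 (−1.41, limma adjusted p = 0.0159). With R5020 itself, 8 of the 10 were called higher in each PR-A line, where 3.63% (WT PR-A) and 1.01% (PR-A K388R) of all probe sets were. FKBP5 was 3.54 higher in WT PR-A cells and 3.56 higher in PR-A K388R cells. The count was 8 to 9 in WT PR-A cells as arrays were left out and 4 to 8 in PR-A K388R cells, the 4 without PR-A K388R vehicle replicate 2, and without moderation of the variance it was 7 and 1.

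A probe set was called where the limma adjusted p, over all 16376 probe sets, was under 0.05 and the difference at least 1.5-fold. In these bulk RNA samples fewer expressing cells and less RNA per cell cannot be told apart. The 3 comparisons of vehicle-treated lines share arrays, and so their values are set side by side without any count of overlap.

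In vehicle-treated cells 4 of the 8 antigen presentation genes were called higher in the line with WT PR-A than in T47D-Y. In that comparison PSME1, HLA-F, TAP1 and HLA-E were 1.58- to 2.19-fold higher and were called, TAP2, PSMB9 and B2M were 1.39- to 1.79-fold higher and were not called, and TAPBP was 1.02-fold higher and not called. The 4 called of 8 genes (4 of 10 probe sets) compare with 3.72% of all probe sets called higher, and 0 were called lower against 3.55% of all. The median difference over the 8 genes was 0.75, against 0.009 over all probe sets, and 7 of the 8 had an unadjusted p under 0.05.

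PSME1, a subunit of the PA28 activator that opens the proteasome and is known to rise with interferon, was the most clearly changed. Its log2 signal was 10.35 and 10.48 in T47D-Y, 11.50 and 11.59 in WT PR-A vehicle, 11.28 and 11.28 in WT PR-A R5020, 10.53 and 10.46 in PR-A K388R vehicle and 10.43 and 10.27 in PR-A K388R R5020. All 4 WT PR-A arrays lay above all 6 others, which overlapped among themselves. The WT PR-A vehicle level was 1.13 above T47D-Y (SE 0.11, 2.19-fold, adjusted p = 0.000241). This call held without each array in turn (1.05 to 1.21).

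TAP1 encodes one chain of the peptide transporter. Its signal was 8.54 and 8.47 in T47D-Y, 9.22 and 9.63 in WT PR-A vehicle, 8.76 and 9.0 in WT PR-A R5020, 8.43 and 8.12 in PR-A K388R vehicle and 8.59 and 8.31 in PR-A K388R R5020. The order was WT PR-A vehicle, WT PR-A R5020 and then the other 3 groups, whose arrays overlapped. WT PR-A vehicle was 0.92 above T47D-Y (SE 0.18, 1.89-fold, adjusted p = 0.00969). Without WT PR-A vehicle replicate 2 the difference was 0.66 (adjusted p = 0.108), and without T47D-Y replicate 1 or 2 it was 0.96 (adjusted p = 0.0585) or 0.88 (adjusted p = 0.0809), so the call was lost in each of these fits.

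TAP2, the partner chain of the transporter, was ordered differently across the lines. Its brighter probe set read 6.69 and 6.73 in T47D-Y, 7.14 and 7.31 in WT PR-A vehicle, 6.96 and 7.10 in WT PR-A R5020, 7.24 and 7.07 in PR-A K388R vehicle and 7.37 and 7.19 in PR-A K388R R5020. T47D-Y stood below the 4 other groups, which overlapped in a chain. The difference of WT PR-A vehicle from T47D-Y was 0.52 (SE 0.13, 1.43-fold), with an adjusted p of 0.0301 but under the fold threshold. That of PR-A K388R vehicle was 0.44 (SE 0.13, adjusted p = 0.0867). The second TAP2 probe set, at 4.40 to 5.35, near the array medians, gave 0.55 and 0.38 for these comparisons, with adjusted p of 0.0685 and 0.235.

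HLA-F and HLA-E are nonclassical class I heavy chains, HLA-E being the ligand of the NKG2A receptor of natural killer cells. HLA-F read 8.27 and 8.23 in T47D-Y, 8.88 and 9.55 in WT PR-A vehicle, 8.66 and 8.96 in WT PR-A R5020, 9.18 and 8.64 in PR-A K388R vehicle and 9.03 and 8.63 in PR-A K388R R5020. T47D-Y lay below all 8 other arrays, which overlapped. HLA-E, by its brighter probe set, read 10.38 and 10.27 in T47D-Y, 10.87 and 11.10 in WT PR-A vehicle, 10.47 and 10.77 in WT PR-A R5020, 10.64 and 10.47 in PR-A K388R vehicle and 10.63 and 10.37 in PR-A K388R R5020. WT PR-A vehicle was the one group clear of the rest. The difference of WT PR-A vehicle from T47D-Y was 0.97 for HLA-F (SE 0.25, adjusted p = 0.0366) and 0.66 for HLA-E (SE 0.15, adjusted p = 0.0235). A second HLA-E probe set gave 0.50 (SE 0.12, 1.41-fold, adjusted p = 0.0246), below the fold threshold. Both called probe sets are of the kind (x_at) whose probes may also bind related class I transcripts.

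Neither HLA call held in every fit that left out an array. HLA-F was 0.55 (adjusted p = 0.324) without WT PR-A vehicle replicate 2, 0.99 (adjusted p = 0.159) without T47D-Y replicate 1 and 0.94 (adjusted p = 0.187) without T47D-Y replicate 2. HLA-E was 0.81 (adjusted p = 0.0503) and 0.51 (adjusted p = 0.217) without WT PR-A vehicle replicates 1 and 2, and 0.73 (adjusted p = 0.0897) and 0.59 (adjusted p = 0.178) without T47D-Y replicates 1 and 2. Leaving out an array also takes away a residual degree of freedom, which raises p at the same difference.

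B2M, the light chain shared by all class I molecules, and PSMB9, the interferon-inducible catalytic subunit of the immunoproteasome, were higher in WT PR-A vehicle than in T47D-Y without passing the test. B2M read 12.48 and 12.44 in T47D-Y, 12.77 and 13.09 in WT PR-A vehicle, 12.69 and 12.88 in WT PR-A R5020, 12.92 and 12.62 in PR-A K388R vehicle and 12.74 and 12.58 in PR-A K388R R5020. T47D-Y was below all 8 other arrays, which overlapped. The difference was 0.47 (SE 0.15, 95% interval 0.13 to 0.81, adjusted p = 0.0969). PSMB9 read 7.43 and 7.42 in T47D-Y, 7.97 and 8.57 in WT PR-A vehicle, 6.85 and 7.40 in WT PR-A R5020, 8.15 and 7.40 in PR-A K388R vehicle and 7.94 and 7.55 in PR-A K388R R5020. PSMB9 differed by 0.39 to 0.75 between the arrays of a transfected group and HLA-F by 0.31 to 0.67, the widest spreads of the set. Its difference was 0.84 (SE 0.29, 95% interval 0.20 to 1.48, adjusted p = 0.113). TAPBP, which encodes tapasin, read 7.94 and 7.78 in T47D-Y, 7.90 and 7.88 in WT PR-A vehicle, 7.31 and 7.60 in WT PR-A R5020, 8.06 and 7.83 in PR-A K388R vehicle and 7.77 and 7.89 in PR-A K388R R5020. WT PR-A R5020 was lowest and the other 4 groups overlapped, with a difference of 0.03 (SE 0.14, 95% interval −0.28 to 0.35) between WT PR-A vehicle and T47D-Y.

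**Figure D2:**
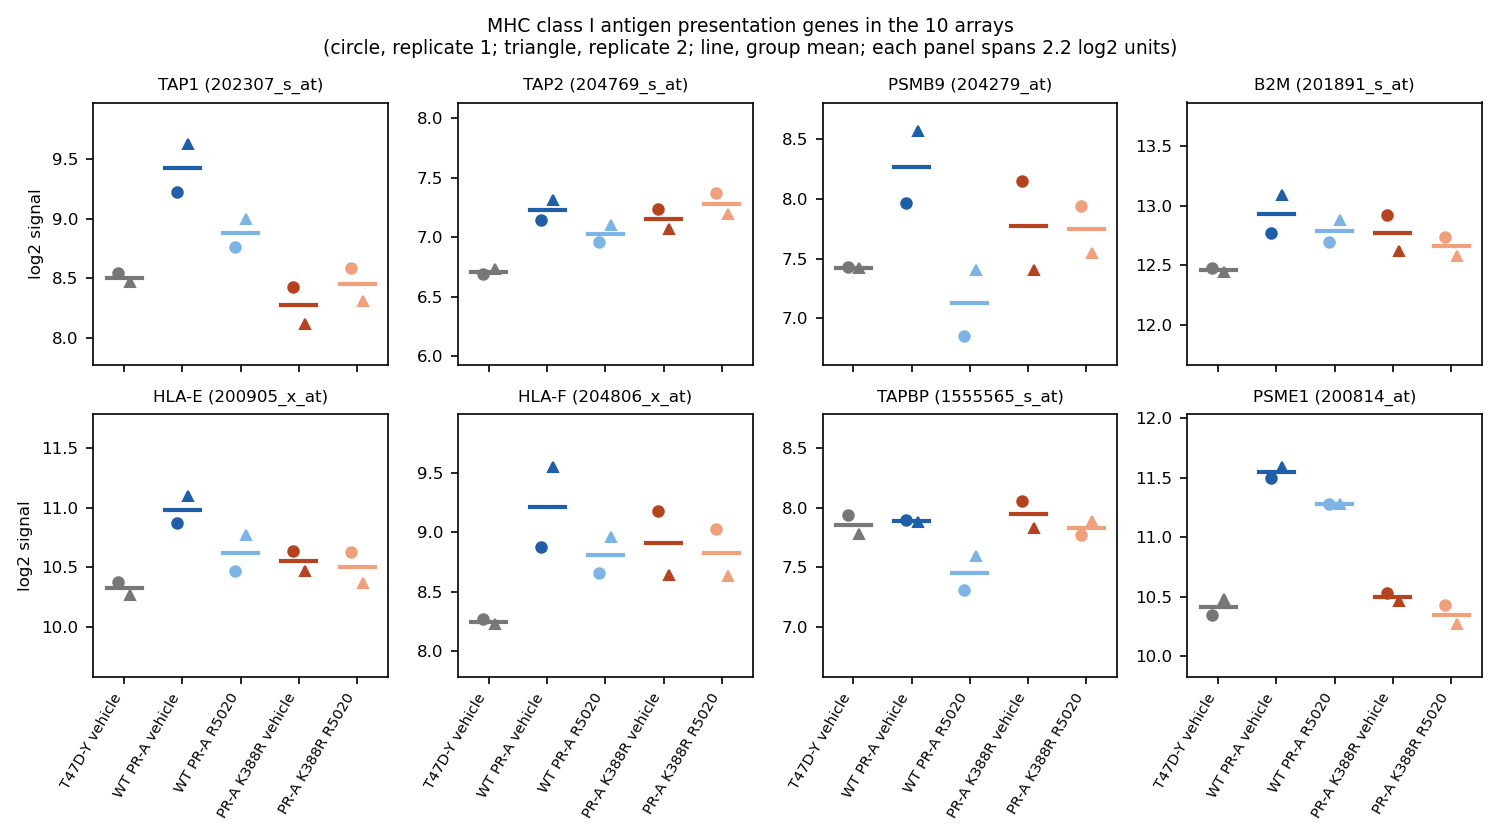
Log2 signal (vertical axes, each spanning 2.2 units and not starting at 0) of the 8 measured class I genes in the 5 groups; circles are replicate 1, triangles replicate 2 and lines group means. PSME1 is high in all 4 WT PR-A arrays, TAP1 is highest in WT PR-A vehicle (9.22 and 9.63), and HLA-F and B2M are lowest in T47D-Y.

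In PR-A K388R vehicle none of the 8 genes passed the test against T47D-Y. In this comparison 1.06% of all probe sets were called higher and 2.30% lower, and the median over the 8 genes was 0.27 against 0.048 over all. By the brightest probe set of each gene, HLA-F was 0.66 higher (SE 0.25, 95% interval 0.11 to 1.22, adjusted p = 0.175) and TAP2 0.44 higher, the 2 genes with an unadjusted p under 0.05. HLA-E gave 0.23 (95% interval −0.12 to 0.57) by its brighter probe set. Its second probe set gave 0.35 (95% interval 0.09 to 0.61, adjusted p = 0.13), with an unadjusted p under 0.05. For TAP1 the difference was −0.23 (95% interval −0.62 to 0.17), and for PSME1 it was 0.08 (95% interval −0.18 to 0.34).

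Set directly against WT PR-A vehicle, PR-A K388R vehicle was lower in TAP1 and PSME1 and in no other gene of the set by the test. TAP1 was lower by 1.14 (SE 0.18, 2.21-fold, adjusted p = 0.00303) and PSME1 lower by 1.05 (SE 0.11, 2.07-fold, adjusted p = 0.000415). Both were called in all 10 fits that left out an array. The 2 of 8 genes compare with 4.72% of all probe sets called lower and, for 0 of 8 called higher, 2.71% of all, with a median of −0.37 against 0.050. HLA-E gave −0.43 (SE 0.15, adjusted p = 0.115), PSMB9 −0.49 (95% interval −1.13 to 0.15), HLA-F −0.31 (95% interval −0.86 to 0.25), B2M −0.16 (95% interval −0.50 to 0.19), TAP2 −0.07 (95% interval −0.35 to 0.21) and TAPBP 0.05 (95% interval −0.27 to 0.37). The second HLA-E probe set gave −0.14 (95% interval −0.40 to 0.12). TAP1 and PSME1 were thus the genes that separated the WT PR-A line from PR-A K388R, while HLA-E, HLA-F, B2M, PSMB9 and TAP2 had PR-A K388R vehicle means between those of the other lines, with neither difference passing the test.

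R5020 lowered PSMB9 in WT PR-A cells, and no other gene of the set passed the test in either line. In WT PR-A cells PSMB9 fell by 1.14 (SE 0.29, 2.21-fold, adjusted p = 0.0362), from 7.97 and 8.57 to 6.85 and 7.40. The arrays of both groups did not overlap. The call was lost without WT PR-A vehicle replicate 2 (−0.77, adjusted p = 0.318) or WT PR-A R5020 replicate 1 (−0.80, adjusted p = 0.283), and without T47D-Y replicate 1 or 2, where the difference stayed at −1.14 and the adjusted p was 0.0559. This 1 of 8 genes compares with 2.77% of all probe sets called lower, and 0 were called higher against 3.63% of all. All 8 differences by the brightest probe set of each gene were below 0. Their median was −0.39, against −0.013 over all probe sets. The second TAP2 probe set went the other way, at 0.14 (SE 0.16, adjusted p = 0.762), where the brighter gave −0.19 (SE 0.13, adjusted p = 0.516). TAP1 gave −0.55 (SE 0.18, adjusted p = 0.108), TAPBP −0.44 (SE 0.14, adjusted p = 0.106), HLA-E −0.37 (SE 0.15, adjusted p = 0.222) and PSME1 −0.27 (SE 0.11, adjusted p = 0.246), each with an unadjusted p under 0.05. PSME1 thus stayed at 11.28 in both R5020 arrays of WT PR-A cells, above every array of the other lines. For PSMB9 replicate 1 (6.85) lay below the T47D-Y arrays (7.43 and 7.42), and replicate 2 (7.40) was close to them.

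In PR-A K388R cells 0 of the 8 genes were called and 0 had an unadjusted p under 0.05, where 1.01% of all probe sets were called higher and 0.391% lower. By the brightest probe set of each gene the differences lay between −0.14 for PSME1 and 0.17 for TAP1, with a median of −0.07 against 0.003. The second TAP2 probe set gave 0.33 (95% interval −0.04 to 0.70). The test of the difference between both R5020 responses called none of the 8 genes, against 0.519% of all probe sets called higher and 0.953% lower. For PSMB9 the difference of responses, PR-A K388R minus WT PR-A, was 1.11 (SE 0.40, 95% interval 0.20 to 2.02, adjusted p = 0.289), and for TAP1 it was 0.72 (SE 0.25, 95% interval 0.15 to 1.28, adjusted p = 0.263). These 2 had an unadjusted p under 0.05. All 8 differences of responses were above 0 (median 0.32, against 0.013 over all probe sets), but none is shown to differ between the lines.

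**Figure D3:**
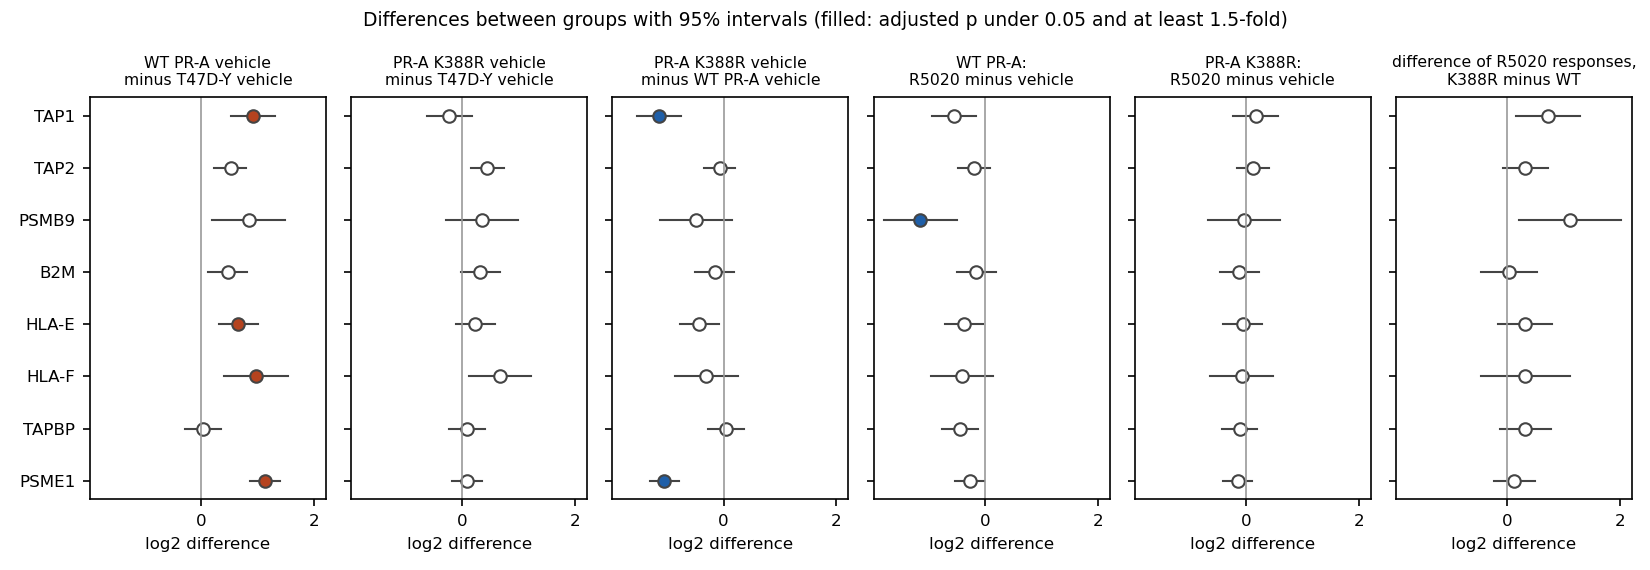
Log2 differences (horizontal axes) with 95% intervals for the 8 measured class I genes in the 6 comparisons; filled points have an adjusted p under 0.05 and at least 1.5-fold. Filled points are PSME1, HLA-F, TAP1 and HLA-E in WT PR-A against T47D-Y vehicle, TAP1 and PSME1 lower in PR-A K388R than in WT PR-A vehicle, and PSMB9 lower with R5020 in WT PR-A cells.

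The interferon state of the lines was read from 22 measured type I interferon-stimulated genes, none of them in the class I set. Their mean log2 signal was 6.60 and 6.04 in T47D-Y, 8.43 and 9.52 in WT PR-A vehicle, 7.30 and 8.53 in WT PR-A R5020, 7.17 and 6.29 in PR-A K388R vehicle and 7.01 and 6.13 in PR-A K388R R5020. All 4 WT PR-A arrays were above all 6 others. In WT PR-A vehicle 17 of the 22 were called higher than in T47D-Y, led by IFI27 (5.96), IFIT1 (5.72) and OAS2 (5.22), with 0 called lower and a median of 2.43. Of all probe sets 3.72% were called higher and 3.55% lower there, with a median of 0.009. In PR-A K388R vehicle limma called 0 of the 22 in either direction against T47D-Y (median 0.24), with 1 higher and 1 lower at an unadjusted p under 0.05. Of all probe sets 1.06% were called higher and 2.30% lower in that comparison (median 0.048), so 0 of 22 is near these shares. The share of all probe sets called lower in PR-A K388R vehicle than in WT PR-A vehicle was 4.72%, with a median of 0.050. Against WT PR-A vehicle, 15 of the 22 were called lower in PR-A K388R vehicle (median −2.21), and 3 were without WT PR-A vehicle replicate 2 or PR-A K388R vehicle replicate 2. The count of 17 fell to 3 without WT PR-A vehicle replicate 2 or without T47D-Y replicate 2.

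Over the same arrays the mean of the 8 class I genes was 9.01 and 8.98 in T47D-Y, 9.53 and 9.84 in WT PR-A vehicle, 9.12 and 9.37 in WT PR-A R5020, 9.39 and 9.08 in PR-A K388R vehicle and 9.31 and 9.10 in PR-A K388R R5020. In both means WT PR-A vehicle replicate 2 was the highest array and T47D-Y replicate 2 the lowest. In the class I mean WT PR-A vehicle was clear of WT PR-A R5020, which overlapped both PR-A K388R groups, whereas in the interferon mean the WT PR-A groups overlapped each other (8.53 in R5020 replicate 2 against 8.43 in vehicle replicate 1) and were clear of the rest. With R5020 in WT PR-A cells the median over the 22 interferon genes was −1.02, against −0.013 over all probe sets. Of the 22, 2 were called lower, IFITM2 by 1.07 and MX2 by 0.83, where 2.77% of all probe sets were. This count ranged from 0 (without WT PR-A vehicle replicate 2 or WT PR-A R5020 replicate 1) to 9 as arrays were left out. In PR-A K388R cells limma called 0 of the 22, with 1 lower at an unadjusted p under 0.05 and a median of −0.14. Of all probe sets 1.01% were called higher and 0.391% lower (median 0.003), so 0 of 22 is near these shares. The 13 measured genes of the constitutive 20S proteasome and its activators, whose subunits PSMB9 and its partners replace, averaged between 11.19 and 11.38 in every array. Of these 13 limma called 0 in any of the 6 comparisons, with at most 3 at an unadjusted p under 0.05 in a direction. Of all probe sets 0.391% to 4.72% were called in a direction, so 0 of 13 is near these shares.

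**Figure D4:**
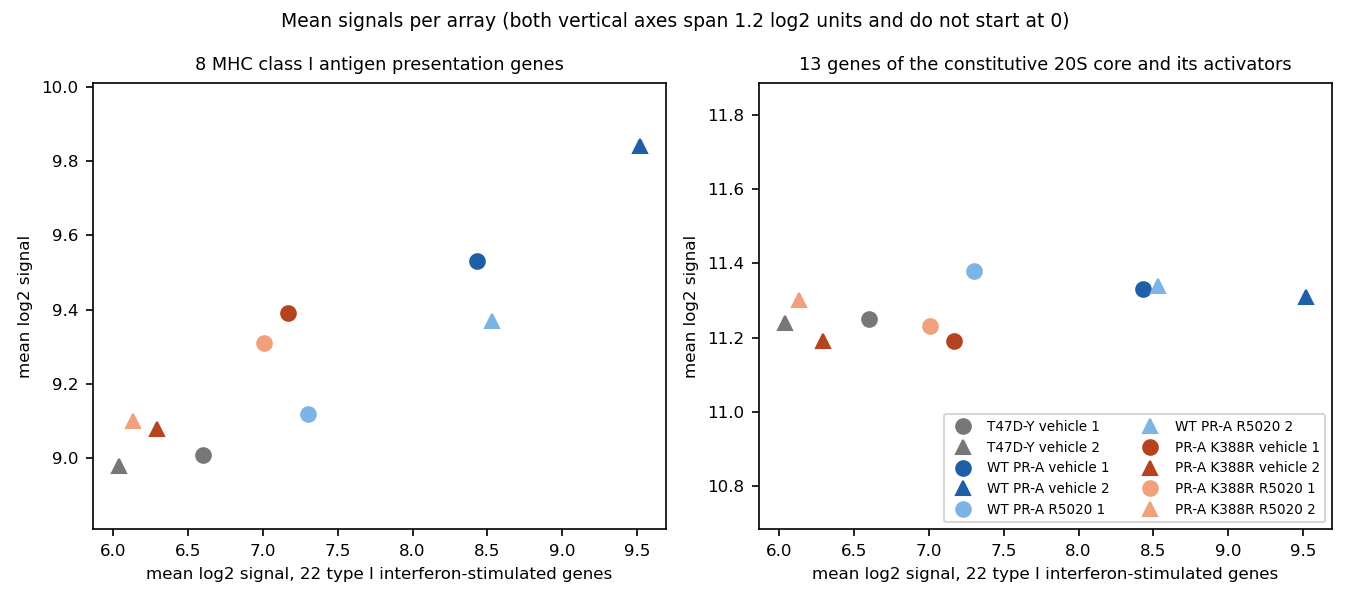
Mean log2 signal per array of the 8 class I genes (left) and of 13 constitutive 20S proteasome genes (right) against that of 22 type I interferon-stimulated genes (horizontal axes); circles are replicate 1 and triangles replicate 2, coloured by group, and axes do not start at 0. The class I mean runs from 8.98 to 9.84 and is highest in the WT PR-A vehicle arrays, and the 20S mean stays within 11.19 to 11.38.

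For part of the class I genes, the arrays of a group differed in the same direction as the interferon genes. In the values used here replicate 2 minus replicate 1, added up across the 5 groups, comes to 0 within 3e-04 in each probe set, so a difference within a group is relative to the average over all groups and opposite signs between groups are partly forced. The mean of the interferon genes was higher in replicate 2 of WT PR-A vehicle (by 1.08) and of WT PR-A R5020 (by 1.24), and lower in replicate 2 of T47D-Y (−0.56), PR-A K388R vehicle (−0.89) and PR-A K388R R5020 (−0.87). TAP1, PSMB9, B2M, HLA-E and HLA-F had those 5 signs as well, with HLA-F at 0.67, 0.31, −0.04, −0.54 and −0.40 and PSMB9 at 0.60, 0.55, −0.01, −0.75 and −0.39 in the same order. TAP2 had them in the 4 groups of transfected cells. PSME1 differed by at most 0.16 between the arrays of a group and TAPBP did not have the signs in every group. The median absolute difference over all probe sets was 0.11 to 0.13, and the 20S mean differed by at most 0.07. In T47D-Y the differences of TAP1, PSMB9, B2M, HLA-E and HLA-F were −0.11 to −0.01, not above the median of 0.11 there. Their sign in that group thus carries little weight. What made the arrays of a group differ was not tested.

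**Figure D5:**
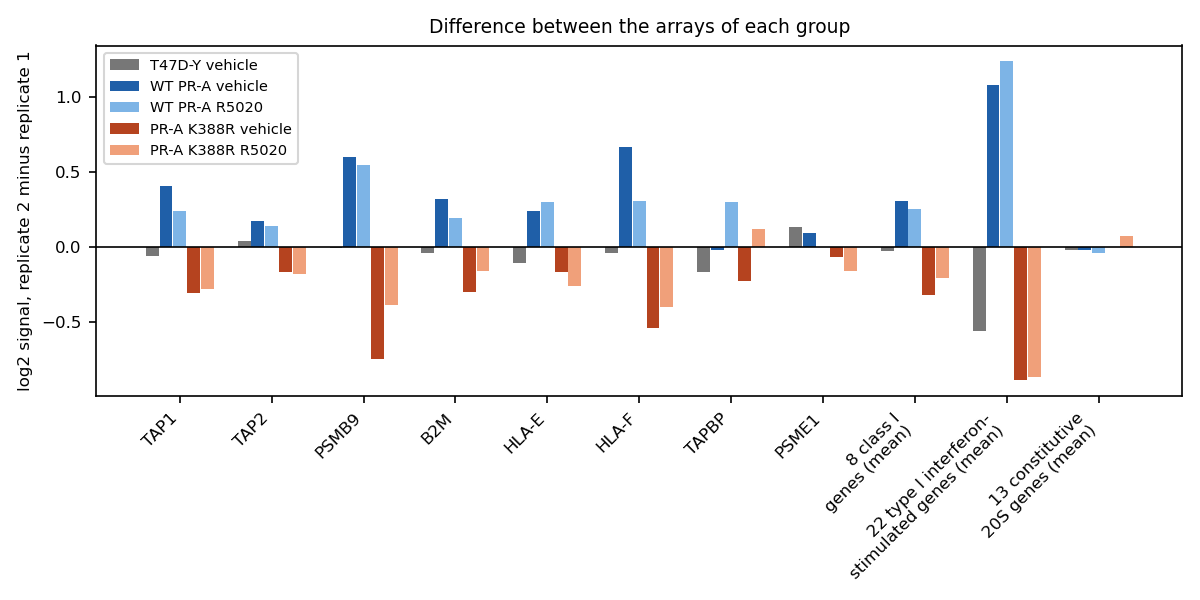
Log2 signal of replicate 2 minus replicate 1 (vertical axis) in each of the 5 groups (bar colours) for the 8 class I genes and for the means of these 8, of 22 type I interferon-stimulated genes and of 13 constitutive 20S genes. Bars of TAP1, PSMB9, B2M, HLA-E and HLA-F have the signs of the interferon genes' mean in all groups, from 1.24 to −0.89 for that mean.

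The rest of the pathway was described from further lists of genes. Their counts are to be read beside the 0.391% to 4.72% of all probe sets called in a direction. Of 4 listed further genes of the proteasome and ubiquitin-like system that interferon induces 2 were measured. UBE2L6, a conjugating enzyme for ubiquitin and ISG15 and not a part of the proteasome, was 1.73 higher in WT PR-A vehicle than in T47D-Y (SE 0.37, adjusted p = 0.0165) and 1.56 lower in PR-A K388R than in WT PR-A vehicle (adjusted p = 0.0257). The first call was lost without WT PR-A vehicle replicate 2 (1.2, adjusted p = 0.166), T47D-Y replicate 1 (1.89, adjusted p = 0.069) or T47D-Y replicate 2 (1.58, adjusted p = 0.131), and the second without WT PR-A vehicle replicate 2 (−1.03) or PR-A K388R vehicle replicate 2 (−1.12), with adjusted p of 0.216 and 0.227. PSMB10, a further catalytic subunit of the immunoproteasome, gave −0.22 (adjusted p = 0.53) for WT PR-A vehicle minus T47D-Y. With R5020 in WT PR-A cells PSMB10 fell by 0.88 (SE 0.16, adjusted p = 0.00755), from 8.57 and 8.95 to 7.83 and 7.94, and in PR-A K388R cells it differed by −0.47 (adjusted p = 0.284). The PSMB10 call was lost without WT PR-A vehicle replicate 2 (−0.64, adjusted p = 0.09) or WT PR-A R5020 replicate 1 (−0.81, adjusted p = 0.0668). The test of the difference of its R5020 responses gave 0.41 (adjusted p = 0.557).

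Of 13 listed relatives of the class I heavy chains 4 were measured, and MICB alone was called in any comparison. MICB, a stress-induced ligand of the NKG2D receptor, read 9.64 and 9.30 in T47D-Y, 9.54 and 9.74 in WT PR-A vehicle, 7.54 and 8.15 in WT PR-A R5020, 8.67 and 8.12 in PR-A K388R vehicle and 8.08 and 8.16 in PR-A K388R R5020. It was high in both T47D-Y and WT PR-A vehicle, unlike the class I genes. R5020 lowered it by 1.79 in WT PR-A cells (SE 0.23, adjusted p = 0.00105), a call that held without each array. R5020 gave −0.28 in PR-A K388R cells (adjusted p = 0.765), and the difference of responses was 1.51 (SE 0.33, adjusted p = 0.0586). MICB was lower by 1.24 in PR-A K388R vehicle than in WT PR-A vehicle (adjusted p = 0.00783), lost without WT PR-A vehicle replicate 2 (−1.12, adjusted p = 0.0791) or PR-A K388R vehicle replicate 2 (−0.90, adjusted p = 0.0794).

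Of 12 measured genes of peptide trimming and loading, SEC24D alone was called in a comparison of vehicle-treated WT PR-A cells. SEC24D, a coat protein of vesicles leaving the endoplasmic reticulum, was 1.17 lower in WT PR-A vehicle than in T47D-Y (adjusted p = 0.00406; −0.96 and adjusted p = 0.0536 without T47D-Y replicate 1). It was 1.00 higher in PR-A K388R than in WT PR-A vehicle (adjusted p = 0.00889), a call lost without WT PR-A vehicle replicate 1 (0.93, adjusted p = 0.0878) or PR-A K388R vehicle replicate 1 (0.78, adjusted p = 0.0829). ERAP2, a peptide-trimming aminopeptidase, fell by 0.65 with R5020 in WT PR-A cells (adjusted p = 0.0127), a call lost without WT PR-A vehicle replicate 2 (−0.49) or WT PR-A R5020 replicate 2 (−0.54), and its arrays read 2.65 to 3.51, around the lower quartile of 3.28 to 3.39. The chaperones CANX (−0.09) and CALR (−0.17) were not called in WT PR-A vehicle against T47D-Y, with adjusted p of 0.758 and 0.667. Of the 15 measured genes of the 19S regulatory particle 1 was called in any comparison, PSMC1, which was 0.59 higher in PR-A K388R vehicle than in WT PR-A vehicle (adjusted p = 0.00715). That call was lost without WT PR-A vehicle replicate 1 (0.59, adjusted p = 0.0641) or 2 (0.59, adjusted p = 0.0579) or PR-A K388R vehicle replicate 2 (0.53, adjusted p = 0.0696).

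Among 8 measured regulators of class I transcription IRF9, a part of the factor that type I interferon activates, was 3.45 higher in WT PR-A vehicle than in T47D-Y (SE 0.54, adjusted p = 0.00318), a call that held without each array, and 0.54 higher in PR-A K388R vehicle (adjusted p = 0.628). Against WT PR-A vehicle, IRF9 was 2.91 lower in PR-A K388R vehicle (adjusted p = 0.00773). That call was lost without WT PR-A vehicle replicate 2 (−2.53) or PR-A K388R vehicle replicate 2 (−2.37). IRF1 gave 0.54 (SE 0.17, adjusted p = 0.0924) for WT PR-A vehicle minus T47D-Y. RFX5, a subunit of the complex at the X box of class I and class II promoters, fell by 1.13 with R5020 in WT PR-A cells (SE 0.12, adjusted p = 0.000289), from 10.20 and 10.03 to 9.03 and 8.95, in all fits without an array. In PR-A K388R cells RFX5 gave −0.39 (adjusted p = 0.193), with 0.73 for the difference of responses (adjusted p = 0.0683).

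Of 9 measured interferon receptors and signalling genes, IFNGR2, the signalling chain of the interferon gamma receptor, was 0.96 higher in WT PR-A vehicle than in T47D-Y (SE 0.13, adjusted p = 0.00151) and held without each array. IFNAR1, a chain of the type I interferon receptor, was called lower with R5020 in WT PR-A cells (−0.69, adjusted p = 0.00962). The IFNAR1 call was lost without WT PR-A vehicle replicate 1 (−0.61) or WT PR-A R5020 replicate 2 (−0.63). IFNGR2 was called lower with R5020 in WT PR-A cells (−0.64, adjusted p = 0.0151) and in PR-A K388R cells (−0.71, adjusted p = 0.0341). These calls were kept in 7 and 4 of the 10 fits without an array. In WT PR-A cells the call was lost without vehicle replicate 1 (−0.57) or 2 (−0.71) or R5020 replicate 1 (−0.48), and in PR-A K388R cells without any of its 4 arrays (−0.75 to −0.67) or either WT PR-A vehicle array (−0.71). JAK1, a kinase shared by both interferon receptors, was lower in WT PR-A vehicle than in T47D-Y (−0.64, adjusted p = 0.0107), a call lost without any of the 4 arrays compared (−0.65 to −0.62, adjusted p 0.0691 to 0.0873). JAK2, the kinase bound to the IFNGR2 chain, rose with R5020 by 1.66 in WT PR-A cells (SE 0.12, adjusted p = 3.57e-05) and by 0.63 in PR-A K388R cells (SE 0.12, adjusted p = 0.0336). The difference of these responses was −1.03 (SE 0.17, adjusted p = 0.0204). Of the 10 fits that each left out an array, the rise in WT PR-A cells was called in 10, that in PR-A K388R cells in 4 and the difference in 3. The difference ranged from −1.12 to −0.93 over these fits, and the adjusted p of the lost calls was 0.0666 to 0.0997. In PR-A K388R vehicle against WT PR-A vehicle, IFNAR2 was called higher (0.75, adjusted p = 0.0303). IFNGR2 (−0.67, adjusted p = 0.0105) and JAK2 (−0.61, adjusted p = 0.00941) were called lower there. None of these calls held without each array, with ranges of 0.56 to 0.95, −0.75 to −0.60 and −0.64 to −0.58. Neither measured interferon ligand gene, IFNE at 2.61 to 3.09 or IFNL1 at 3.97 to 4.46, was called in any comparison, and both were under the array medians.

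Of 9 measured genes typical of interferon gamma 3 were called higher and 1 lower in WT PR-A vehicle than in T47D-Y. Of all probe sets 3.72% and 3.55% were. GBP1 (4.05, adjusted p = 0.00072), CXCL10 (2.56, adjusted p = 0.00419) and ICAM1 (1.80, adjusted p = 8.37e-05) rose above T47D-Y in all fits without an array, and SERPING1, a complement inhibitor, fell below it by 0.81 (adjusted p = 0.0208). The SERPING1 call was lost without WT PR-A vehicle replicate 1 (−0.63, adjusted p = 0.194), T47D-Y replicate 1 (−0.85, adjusted p = 0.101) or T47D-Y replicate 2 (−0.77, adjusted p = 0.14). GBP2 differed by 0.48 (adjusted p = 0.0778) there. With R5020 in WT PR-A cells GBP1 (−2.29), GBP2 (−1.40, adjusted p = 0.000304) and ICAM1 (−0.85) were called lower, where 2.77% of all probe sets were. In PR-A K388R vehicle ICAM1 (0.76, adjusted p = 0.0214) was called higher and SERPING1 (−0.77, adjusted p = 0.0459) lower than in T47D-Y. These ranged over 0.66 to 0.86 and −1.01 to −0.54 as arrays were left out. PR-A K388R vehicle was called lower than WT PR-A vehicle in GBP1 (−3.85), CXCL10 (−1.74) and ICAM1 (−1.04), and higher in WARS1 (0.80). CXCL9 at 3.79 to 4.48 and CIITA, the master regulator of class II genes, at 3.39 to 3.8 were not called in any comparison and stayed under the array medians.

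Of 7 measured MHC class II genes all had a higher mean in WT PR-A vehicle than in T47D-Y and 4 were called, HLA-DPB1, HLA-DMB, CTSS and HLA-DOB, where 3.72% of all probe sets were. HLA-DOB (0.76, adjusted p = 0.0388) was called in 4 of the 10 fits without an array, and was 0.51 (adjusted p = 0.328) without WT PR-A vehicle replicate 2 and 0.42 (adjusted p = 0.335) without T47D-Y replicate 2. Without either array of a PR-A K388R group it stayed at 0.76, with an adjusted p of 0.0507 (vehicle) or 0.0598 (R5020). HLA-DPB1, a class II beta chain, read 5.90 and 5.73 in T47D-Y, 7.57 and 7.67 in WT PR-A vehicle, 6.56 and 6.65 in WT PR-A R5020, 6.37 and 6.44 in PR-A K388R vehicle and 6.30 and 6.20 in PR-A K388R R5020. It was 1.81 higher in WT PR-A vehicle than in T47D-Y (adjusted p = 1.9e-05) and fell by 1.02 with R5020 in WT PR-A cells (adjusted p = 0.000484), each in all fits without an array. In PR-A K388R cells the R5020 difference was −0.16 (adjusted p = 0.724), and the difference of responses was 0.86 (SE 0.16, adjusted p = 0.0395). That call was lost in all 10 fits without an array (0.80 to 0.92, adjusted p 0.0534 to 0.155). HLA-DMB, which edits class II peptides, stood above T47D-Y in WT PR-A vehicle by 1.1 (adjusted p = 0.00126) and in PR-A K388R vehicle by 0.98 (adjusted p = 0.00675). The second of these calls was lost without PR-A K388R vehicle replicate 1 (0.85, adjusted p = 0.0565) or T47D-Y replicate 1 (0.90, adjusted p = 0.0805).

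The 5 genes outside the set whose group means were most like the mean of the 8 class I genes, each gene first scaled to an SD of 1, were MIR99AHG, INPP1, ITGAL, DNAH3 and BLVRA. Likeness was Pearson's r over the 5 group means, among 2317 genes with at least 1.5-fold between group means, and is a description. It was 0.9932 for MIR99AHG and 0.9790 for BLVRA, biliverdin reductase A. BLVRA had group means of 9.21 in T47D-Y, 10.51 in WT PR-A vehicle, 9.88 in WT PR-A R5020, 9.84 in PR-A K388R vehicle and 9.80 in PR-A K388R R5020. ITGAL, an integrin chain of leukocytes, lay at 2.57 to 3.48, around the lower quartile of the arrays (3.28 to 3.39).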

How the data were processed

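RNA was measured on 10 Affymetrix U133 Plus 2 arrays. The deposited values are log2 signals that the authors made from the raw data with Partek Genomics Suite, and the normalization method is not given in the sources used here. The 16376 probe sets in the table are part of the array, of which 12547 carry 1 gene symbol in the platform annotation, 457 carry several and 3372 are not listed there. The labels and the methods differ in the culture medium and the RNA kit they name. The targeted receptor gene, PGR, was not analysed here. Depth has no meaning for arrays, and the precision is limited by having 2 arrays a group.

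The main model was limma 3.58.1 in R 4.3.3, with 1 mean per group and the replicate number as a block over all 10 arrays, which leaves 4 residual and 5.62 prior degrees of freedom. The block was kept because the replicate number had been removed from the deposited values. Replicate 2 minus 1 totalled at most 3e-04 in size across groups for any probe set, against medians of 0.228 to 0.255 when the numbers of 1 group were exchanged, so a model without it counts 1 degree of freedom too many and a check of pairing by correlation is void. Tests were two-sided, with Benjamini-Hochberg adjustment over all probe sets. The model was also run on simulated data, for the contrast of WT PR-A vehicle minus T47D-Y alone. A gene with several probe sets was represented by that of the highest mean.

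The genes and lists were chosen with earlier results of these data known. Named were all class I genes, per list up to 3 called genes with the largest difference (where none was called, up to 2 of the highest signal) and the 5 genes of the most similar pattern. SERPING1, WARS1, IRF1, CANX, CALR, CXCL9, CIITA, ESR1, COL1A1, PTPRC and repeat values of listed genes fall outside that rule and were chosen after their values were seen. Alternatives were other normalizations, no block, an intensity trend, no moderation, a fold of 2, unadjusted p, a filter leaving out the dimmest 40% of probe sets, another representative probe set, the compared groups alone, and each array left out. Figures were drawn in Python 3.11.15 with matplotlib 3.10.9.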

Additional observations from a re-analysis of the deposited data

Results flagged for a closer look

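By a test of the difference itself, the R5020 response was called different between the PR-A lines for 2 genes of the interferon and class II lists. Of all probe sets 0.519% were called higher and 0.953% lower by this test, and 0 and 0 without moderation. Of the progestin targets, DUSP1 (−1.41, limma adjusted p = 0.0159) and PDK4 (−1.84, limma adjusted p = 0.0492) were called by it too. For JAK2, PR-A K388R minus WT PR-A gave −1.03 (SE 0.17, limma adjusted p = 0.0204), with a rise in each line. The call was kept in 3 of 10 fits that left out an array. For HLA-DPB1 the difference of responses was 0.86 (SE 0.16, limma adjusted p = 0.0395), with an R5020 difference of −1.02 for WT PR-A and of −0.16 for the mutant, and the call was kept in 0 of 10 such fits. With 2 arrays a group no array could be tested for standing apart.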

How the results depend on the processing

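None of the 7 class I differences that were called changed sign under any alternative run. The 4 class I genes called higher in WT PR-A vehicle than in T47D-Y were 1 without moderation, 1 at a fold of 2 and 1 to 4 as each array was left out. The 2 genes called lower in PR-A K388R vehicle than in WT PR-A vehicle were 1 without moderation and 2 in every fit without an array. The 1 gene called lower with R5020 in WT PR-A cells, PSMB9, was 0 without moderation and 0 to 1 as arrays were left out. At an unadjusted p under 0.05, 1 gene (HLA-F) was called higher in PR-A K388R vehicle than in T47D-Y and 2 (TAP1, PSMB9) in the difference of R5020 responses, where the main counts were 0. In the compared groups alone PSMB9 was called higher in WT PR-A vehicle than in T47D-Y (0.84, adjusted p = 0.005). Where not said, the cause was not tested.

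Without the replicate block the class I counts were again 4, 2 and 1, and 0 in the other comparisons. For all probe sets, the difference of R5020 responses moved from 85 higher and 156 lower to 237 and 289 without the block, 189 and 246 with an intensity trend, 458 and 529 at unadjusted p and 0 and 0 without moderation, and 55 higher in the compared groups alone and 53 at a fold of 2. For WT PR-A vehicle minus T47D-Y, 610 and 582 became 192 and 186 without moderation and 277 and 230 at a fold of 2. For PR-A K388R vehicle minus T47D-Y, 174 and 376 became 7 and 10, and 65 and 143. For PR-A K388R vehicle minus WT PR-A vehicle, 443 and 773 became 138 and 245, and 156 and 322. For R5020 in WT PR-A cells, 595 and 454 became 196 and 114, and 300 and 171. For R5020 in PR-A K388R cells, 166 and 64 became 2 and 0, and 73 and 15, and were 254 and 151 at unadjusted p, with 119 lower in the compared groups alone.

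As each array was left out, the higher and lower counts, in the order of the report, ranged over 411 to 630 and 367 to 582, 64 to 177 and 138 to 407, 255 to 456 and 467 to 806, 423 to 590 and 280 to 462, 46 to 172 and 10 to 74, and, for the difference of responses, 22 to 64 and 49 to 105. A fit without an array has 1 residual degree of freedom fewer and takes the remaining array of that group to vary like the others. The number of arrays limits the precision, and signal over background was not analysed here.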
